A study of Mus musculus with 3 samples.

Results

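The elastic fibre genes are 10 genes that encode the structural proteins of elastic fibres, chosen by name and found by Ensembl identifier among the 32285 genes counted in dissociated mouse skin wounds. They are *Eln*, the fibrillin genes *Fbn1* and *Fbn2*, the microfibril-associated protein genes *Mfap2*, *Mfap4* and *Mfap5*, the fibulin genes *Fbln1*, *Fbln2* and *Fbln5*, and *Emilin1*. All 10 were detected on each of Days 3, 7 and 14 post injury. There was 1 single-cell library per day, each from unsorted cells of several wounds of adult male C57BL/6J mice, pooled before capture. The mice carried no genetic change or drug treatment, and the labels separate the groups only by the day of harvest. With 1 library per day, the day cannot be told apart from other differences between the libraries. The series describes the injury as incisional, whereas the methods describe full-thickness excisional punch wounds of shaved dorsal skin. No unwounded skin library was used here, so a level cannot be set against that of intact skin.

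Elastic fibres give skin, arteries and lung their recoil. They consist of a core of cross-linked elastin on a scaffold of microfibrils built from fibrillins. Microfibril-associated proteins sit on that scaffold, fibulins and emilins bridge it to elastin, and lysyl oxidases form the cross-links. In skin the fibres are made chiefly by fibroblasts, and vessel walls have their own elastic laminae.

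With 1 library per day, no test between days was possible and the spread between mice or wounds is unknown. Levels are given as CPM, the unique molecular identifiers (UMIs) of a gene divided by all UMIs of the same class of cells and day and scaled to 1e6. Ranges in parentheses are 95% intervals that cover counting error only. Cells were grouped into classes named "X-like" after fixed markers, with none of the 10 genes used for clustering. A gene counted as higher or lower between days only past 2-fold. Each gene was compared only with itself, because UMIs from 3' ends are not scaled by transcript length.

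The libraries held 4373, 19707 and 13634 cells after filtering, 37714 in all, and 38133650, 120940799 and 112713257 UMIs as deposited. Fibroblast-like cells numbered 407 on Day 3, 5964 on Day 7 and 6775 on Day 14, which was 9.31%, 30.3% and 49.7% of cells. All 8 fibroblast markers were detected in them on each day. Their median depth was 44354 UMIs per cell on Day 3 against 10350.5 and 10217 later, so the Day 3 cells were fewer and deeper. Macrophage markers summed to 75.4 to 235 CPM in these cells, against 67910 to 142260 CPM for the fibroblast markers. Libraries shared 14 to 86 cell barcodes per pair.

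On the GRCm38 build, *Eln* lies on the minus strand at chr5:134702593-134747323 and *Emilin1* on the plus strand of the same chromosome at chr5:30913402-30921277. *Fbn1* is at chr2:125300594-125507993 (minus), *Mfap2* at chr4:141010418-141015984 (plus) and *Mfap4* at chr11:61485431-61488900 (plus). *Mfap5* and *Fbln2* share chromosome 6, at chr6:122505845-122529290 and chr6:91212455-91272540, both on the plus strand. *Fbln1* is at chr15:85205949-85286535 (plus) and *Fbln5* at chr12:101746565-101819055 (minus). These spans cover whole genes, exons and introns together.

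The promoters of *Mfap2*, *Emilin1* and *Fbln5* are shown because these genes differed in direction over the days or in the class with the highest level. In fibroblast-like cells *Mfap2* was past 2-fold higher in both intervals and *Fbln5* only from Day 3 to Day 7. *Emilin1* was past 2-fold lower only from Day 7 to Day 14. On both later days *Mfap2* was highest in fibroblast-like cells, whereas *Fbln5* was highest in endothelial cell-like cells. On the first day the endothelial cell-like class had too few cells to be compared. RefSeq windows on GRCm38.p6 run from 250 bases before to 50 bases after a start site and were found for 6 of the 10 members. Capitals mark matches, on either strand, to GGGCGG, a GC box bound by Sp1 family factors, or to CAGACA, which contains the core letters bound by SMADs.
Mfap2, chr4:141010174-141010473, plus strand: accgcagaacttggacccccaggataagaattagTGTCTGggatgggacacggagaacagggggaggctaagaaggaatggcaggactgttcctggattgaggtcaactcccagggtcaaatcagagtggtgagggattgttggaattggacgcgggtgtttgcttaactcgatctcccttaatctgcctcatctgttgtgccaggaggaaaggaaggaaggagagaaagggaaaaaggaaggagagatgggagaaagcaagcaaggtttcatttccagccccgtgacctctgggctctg
Emilin1, chr5:30913536-30913835, plus strand: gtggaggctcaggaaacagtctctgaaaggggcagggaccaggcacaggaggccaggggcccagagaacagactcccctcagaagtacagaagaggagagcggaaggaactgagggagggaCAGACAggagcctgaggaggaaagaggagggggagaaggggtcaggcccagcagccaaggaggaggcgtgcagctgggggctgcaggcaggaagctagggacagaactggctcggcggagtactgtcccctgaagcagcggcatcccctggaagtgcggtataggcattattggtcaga
Fbln5, chr12:101819070-101819369, minus strand: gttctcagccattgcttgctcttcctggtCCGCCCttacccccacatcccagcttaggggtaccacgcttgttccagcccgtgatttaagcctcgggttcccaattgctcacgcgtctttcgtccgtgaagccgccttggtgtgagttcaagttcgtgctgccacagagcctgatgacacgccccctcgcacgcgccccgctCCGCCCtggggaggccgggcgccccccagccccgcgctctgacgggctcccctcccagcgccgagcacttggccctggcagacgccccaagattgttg
The *Mfap2* and *Emilin1* windows each held 1 match to CAGACA, which 21% of all 32851 promoter windows held. The *Fbln5* window held 2 matches to GGGCGG, present in 35.7% of windows. Neither TATAAA, the AP-1 letters TGANTCA nor the ETS letters CGGAAGT occurred in these 3 windows, and 13.6%, 7.81% and 6.42% of all windows held them. The *Emilin1* start used here lies 384 bases inside the gene span. RefSeq lists a further start for *Mfap2* (chr4:141010431-141010730), whose window held 2 matches to GGGCGG and none to CAGACA, and for *Fbln5* (chr12:101818435-101818734), whose window held 1 match to CAGACA and none to GGGCGG. The windows printed are those nearest the start of the gene span, and the matches do not separate the genes. A match is a description of the letters and was not tied to any measurement.

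Within fibroblast-like cells the elastic fibre genes did not move as 1 group. *Eln*, *Mfap2* and *Mfap4* were past 2-fold higher in both intervals. *Mfap5* and *Fbln5* were past it only from Day 3 to Day 7. The fibrillins, *Fbln1* and *Fbln2* stayed within 2-fold in each interval, although *Fbln1* passed it from Day 3 to Day 7 under other scalings. *Emilin1* was past 2-fold lower from Day 7 to Day 14.

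**Figure D1:**
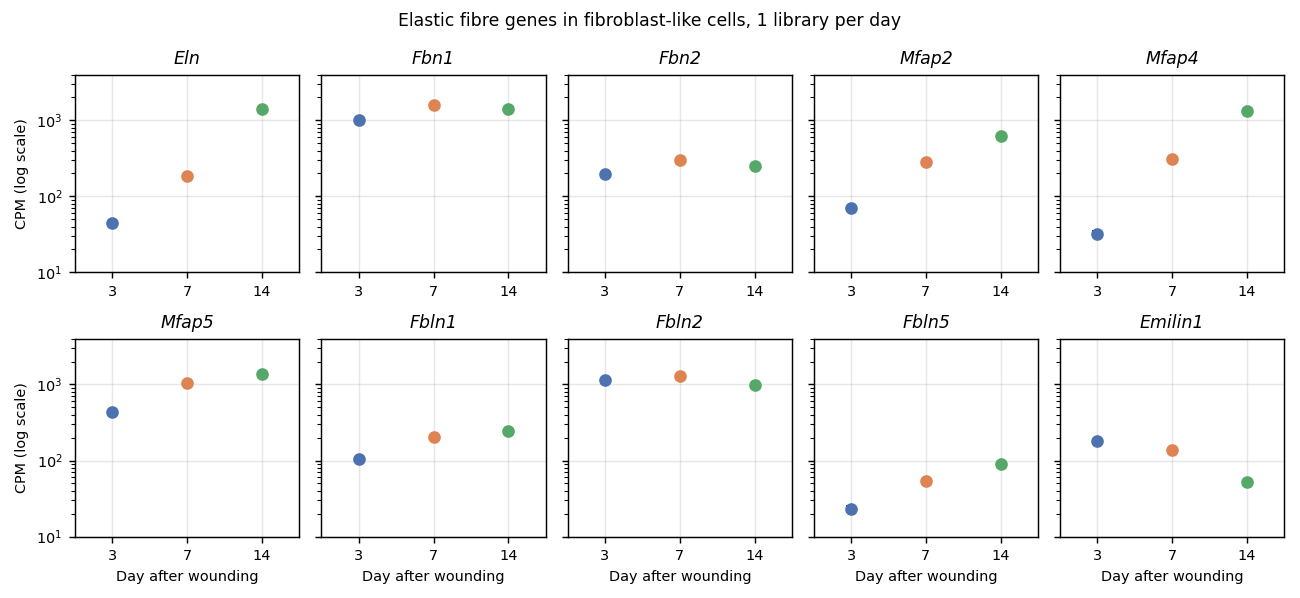
CPM of each of the 10 genes in fibroblast-like cells on Days 3, 7 and 14 (log axis, 1 library per day; bars are 95% intervals for counting error, mostly smaller than the points). *Eln* ran from 44.4 to 1404 CPM and *Mfap4* from 32.3 to 1325 CPM, whereas *Emilin1* ran from 179.9 to 51.6 CPM.

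*Eln* encodes tropoelastin, the soluble precursor of the elastic core. Its level in fibroblast-like cells was 44.4 CPM on Day 3 (41.6 to 47.5), 183.9 CPM on Day 7 (180.6 to 187.3) and 1404 CPM on Day 14 (1395 to 1413). The 3 intervals did not overlap. The later interval had the larger fold, 7.63 against 4.14, and Day 14 was 31.6-fold above Day 3. The Day 3 level leaned on few cells, since 1 cell held 130 of the 888 *Eln* UMIs, and without that cell the level was 38.0 CPM.

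Fibrillin-1 and fibrillin-2 polymerise into the microfibril backbone, and fibrillin-2 is best known from development. *Fbn1* measured 1003, 1607 and 1427 CPM on Days 3, 7 and 14. *Fbn2* measured 196.3, 298.2 and 251.6 CPM. Both had their highest level on Day 7, by folds of 1.60 and 1.52 over Day 3 and of 1.13 and 1.19 over Day 14. Their ratio hardly moved, with 0.196, 0.186 and 0.176 *Fbn2* UMIs per *Fbn1* UMI on the 3 days.

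The ratio of *Eln* to *Fbn1*, in contrast, moved. There were 0.0443 *Eln* UMIs per *Fbn1* UMI on Day 3, 0.114 on Day 7 and 0.984 on Day 14 (0.975 to 0.993). *Mfap4* UMIs per *Fbn1* UMI went from 0.0322 to 0.196 and 0.929. Such ratios are read between days only, because UMIs of different genes are not on a common scale of molecules.

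The MFAP genes encode small glycoproteins of microfibrils. *Mfap4*, whose protein binds elastin and fibrillin, measured 32.3, 314.4 and 1325 CPM, a 9.72-fold step to Day 7 and a 4.22-fold step to Day 14. *Mfap2*, also called MAGP-1, measured 69.7, 284.1 and 614.4 CPM, with steps of 4.08-fold and 2.16-fold. *Mfap5*, the related MAGP-2, measured 431.1, 1055 and 1387 CPM, and only its first step, 2.45-fold, was past 2-fold. *Mfap2* UMIs per *Mfap5* UMI went from 0.162 to 0.269 and 0.443.

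Fibulins link elastin to cells and to the scaffold. *Fbln5*, needed in mice for elastic fibre assembly, measured 22.9, 53.5 and 89.1 CPM, 2.33-fold and then 1.67-fold higher. *Fbln1* measured 103.6, 202.8 and 242.4 CPM, and its first step of 1.96-fold was just inside the limit. *Fbln2* measured 1160, 1298 and 974.4 CPM. Its levels on the 3 days were thus within 1.33-fold of each other.

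*Emilin1* encodes a glycoprotein found between the elastin core and the microfibrils and known to restrain TGF-beta maturation. It measured 179.9 CPM on Day 3 (174.1 to 185.9), 139.3 CPM on Day 7 (136.5 to 142.2) and 51.6 CPM on Day 14 (49.96 to 53.31). The step to Day 14 was 2.70-fold lower, a log2 ratio of -1.43 (-1.49 to -1.38). No other member had a level on Day 14 that far under its Day 3 level.

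In counts, 5 of 10 members were past 2-fold higher on Day 7 than on Day 3 and none was past 2-fold lower. Over all 3215 genes with at least 50 CPM on 1 of the days and 10 UMIs on each, 5.60% were past 2-fold higher and 10.9% past 2-fold lower. From Day 7 to Day 14, 3 of 10 members were higher and 1 lower, against 3.06% higher and 3.96% lower of 2806 genes. The median log2 ratio of the members was 1.09 in the first interval and 0.33 in the second, and that of all genes was -0.27 and -0.08. By log2 ratio from Day 7 to Day 14, *Eln* ranked 6th, *Mfap4* 15th and *Mfap2* 66th of the 2806 genes, and *Emilin1* ranked 52nd from the bottom. Of the fibrillar collagen genes, *Col1a1* measured 22683, 41458 and 52227 CPM and *Col3a1* 17652, 33649 and 34180 CPM, within 2-fold in each interval. Other scalings moved the median of all genes by up to 0.19 on the log2 scale and turned the direction of no member.

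**Figure D2:**
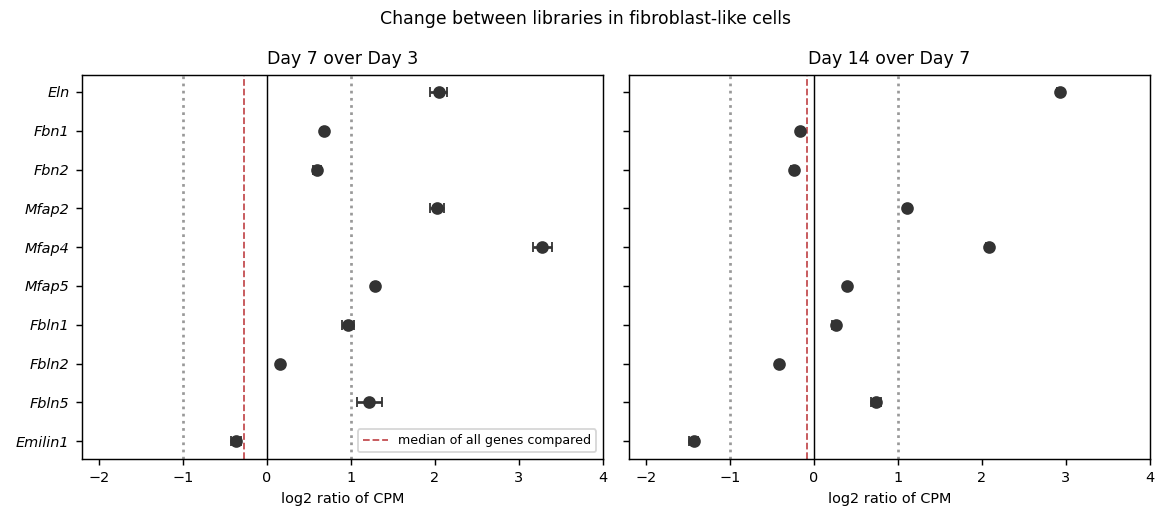
Log2 ratios of CPM in fibroblast-like cells, Day 7 over Day 3 and Day 14 over Day 7, for each of the 10 genes, with 95% counting intervals, dotted lines at 2-fold and a dashed line at the median of all genes compared. *Eln* lies at 2.05 and 2.93, and *Emilin1* is the member below zero in both intervals.

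The genes that work with these proteins were read as a further list of 34 genes in 6 groups. The limits of 50 CPM on 1 of the days and 10 UMIs on each were met by 12 of them from Day 3 to Day 7, of which 2 were past 2-fold higher and 4 lower. From Day 7 to Day 14, 14 could be compared, with 3 higher and 3 lower. Over all genes compared, 5.60% were higher and 10.9% lower in the first interval, and 3.06% and 3.96% in the second. Of the 4 cross-linking enzymes compared, 3 were past 2-fold lower in the first interval and 2 in the second, and none was past 2-fold higher. *Lox*, the founding lysyl oxidase, measured 2301, 661.1 and 558.6 CPM in fibroblast-like cells. *Loxl2* measured 1417, 512.1 and 253.3 CPM, and *Loxl3* measured 178.4, 75.3 and 22.8 CPM. *Loxl1*, the enzyme tied most closely to elastin, measured 851.8, 661.2 and 536.2 CPM and stayed within 2-fold in each interval. The median log2 ratio of these 4 genes was -1.36 and then -0.66.

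Of the remaining fibulin and emilin genes within the limits, 1 of 3 was past 2-fold lower in the first interval, and 1 of 4 was lower and 1 higher in the second. *Efemp2*, which encodes fibulin-4, a carrier of lysyl oxidase to elastin, measured 420.0, 209.7 and 99.4 CPM, right at the 2-fold limit in the first interval. *Ltbp4*, which encodes a latent TGF-beta binding protein that assists fibulin-5, measured 1.40, 10.2 and 71.8 CPM, a 7.05-fold step to Day 14. *Fbln7* measured 0.55, 24.0 and 137.8 CPM. Both reached 50 CPM only on Day 14, so only their second interval was counted. *Efemp1* (262.8, 216.6 and 192.7 CPM) and *Ltbp3* (38.9, 56.3 and 55.7 CPM) stayed within 2-fold. None of the 6 fibrillin-binding ADAMTS family genes reached 50 CPM, so none was counted.

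Among 9 genes for enzymes that cut elastin, *Ctsk* (cathepsin K) measured 170.8, 550.3 and 1311 CPM in fibroblast-like cells and was past 2-fold higher in both intervals. *Mmp2* measured 386.5, 966.3 and 803.5 CPM. Macrophage-like cells held the macrophage elastase gene *Mmp12*, at 208.9, 321.9 and 271.5 CPM, and *Ctss* (cathepsin S), at 3826, 2836 and 2229 CPM. On Day 14 *Mmp12* was higher in dendritic cell-like cells, at 364.0 CPM. The neutrophil elastase gene *Elane* and the cathepsin G gene *Ctsg* had no UMI in neutrophil-like cells on any day, with only 21 such cells on Day 14. Only RNA was counted, so the amount of either enzyme is not known.

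Most UMIs of the 10 genes lay in fibroblast-like cells, from 85.7% (*Emilin1*, Day 14) to 99.2% (*Mfap4*, Day 3). Of the UMIs of all genes, these cells held 56.1%, 63.4% and 71.7% on Days 3, 7 and 14. On Days 7 and 14, 8 of 10 had their highest CPM there, among 8 and 9 classes with at least 50 cells. The lead of *Emilin1* on Day 7 was within counting error. It measured 139.3 CPM against 126.4 CPM in the class named after *Bmp4*, a log2 difference of 0.14 (-0.61 to 1.01). Over all genes expressed, 11.0% on Day 7 and 7.96% on Day 14 were highest in fibroblast-like cells. RNA released by fibroblasts can be captured with other cells, so levels in other classes were read beside that of *Col1a1*.

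Whether other classes made some *Col1a1* of their own was not tested. In macrophage-like cells *Col1a1* stood at 0.650%, 3.29% and 5.05% of its fibroblast-like CPM on Days 3, 7 and 14. The other 9 members had shares of their own fibroblast-like CPM, 0.258% to 2.19%, 2.74% to 4.53% and 3.03% to 5.22%. *Emilin1* lay above these ranges, at 11.9%, 25.2% and 39.0%. In CPM, *Emilin1* in macrophage-like cells measured 21.5, 35.2 and 20.1 (257, 900 and 235 UMIs). In neutrophil-like cells of Day 7 the *Emilin1* share was 10.6%, beside 9.27% for *Col1a1*, close to each other.

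Epithelial cell-like cells of Day 14, 772 in number, had all 10 members near the *Col1a1* share. Their shares of fibroblast-like CPM ran from 14.4% (*Mfap5*) to 21.0% (*Fbln5*), with *Col1a1* at 14.9%. With cells thinned to 500 UMIs, 48.6% of them had a *Col1a1* UMI, against 57.2% of macrophage-like cells, whose *Col1a1* CPM share was 5.05%. The shares of epithelial cell-like cells were thus not spread evenly over cells, and the source of these UMIs was not tested.

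**Figure D3:**
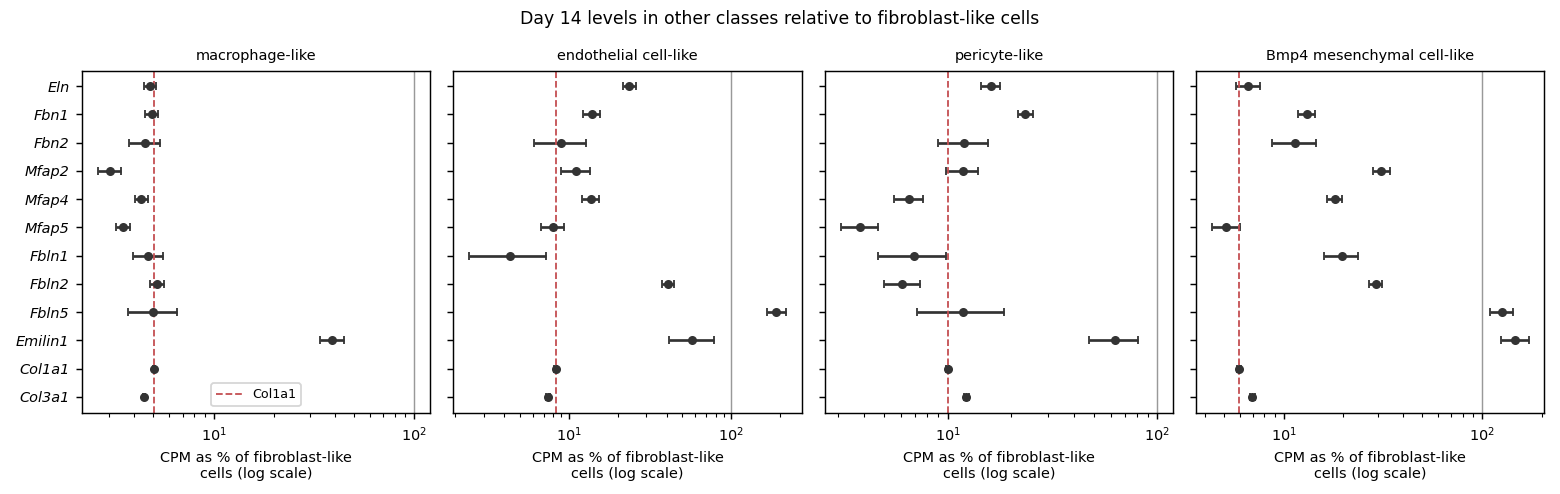
CPM of members in the other classes as a percentage of their fibroblast-like CPM, on Day 14 in 4 classes (log axis). Bars are 95% counting intervals, the dashed line is the *Col1a1* percentage and the grey line is equality; *Emilin1* in macrophage-like cells, at 39.0%, stands apart from the other members there.

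Endothelial cell-like cells numbered 244 on Day 7 and 238 on Day 14. *Fbln5* was higher in them than in fibroblast-like cells, at 135.5 against 53.5 CPM on Day 7 and 168.8 against 89.1 CPM on Day 14. *Eln* stood at 318.9 CPM on Day 7, above the 183.9 CPM of fibroblast-like cells. That order rested on 1 cell, which held 272 of the 614 *Eln* UMIs (44.3%), and without it the endothelial level was 178.9 CPM. The cell belonged to a sub-cluster of 17 cells led by *Col3a1* and *Dcn*, which are fibroblast genes. Without that sub-cluster, *Eln* measured 165.2 CPM (146.2 to 186.1), 89.8% of the fibroblast-like level, while *Col1a1* stood at 1.85% of its own. *Fbln5* was then 138.0 CPM and still the highest of the classes.

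The same cells were split into sub-clusters, some of them led by genes known from a type of vessel. Sub-clusters led by *Ackr1* and *Selp*, genes of venules, held *Eln* at 400.6 CPM on Day 7 (79 cells) and 433.1 CPM on Day 14 (54 cells). Sub-clusters with *Sema3g* and *Cxcl12* among their leading genes held *Eln* at 87.5 and 118.9 CPM. Their leading genes also included *Esm1* and *Prnd*, so no vessel type was assigned to them. The ones with the lymphatic genes *Mmrn1* and *Lyve1* held *Fbln5* at 163.7 and 287.3 CPM, and on Day 7 also *Emilin1* at 227.2 CPM. Apart from the *Col1a1*-rich cells, *Eln* was thus highest in the venule-gene sub-clusters on both days. *Fbln5* on Day 14 and *Emilin1* on Day 7 were highest in the lymphatic-gene ones, of 44 and 43 cells. On Day 7 the *Fbln5* level there, 163.7 CPM (126.8 to 207.9), could not be told apart from the 149.9 CPM (113.8 to 193.8) of the venule-gene sub-cluster. The latent TGF-beta binding protein gene *Ltbp4* stood at 158.4 and 362.3 CPM in endothelial cell-like cells, above its level in fibroblast-like cells.

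Pericyte-like cells, 185 on Day 7 and 436 on Day 14, also held the smooth muscle genes *Myh11* (655.9 and 759.7 CPM) and *Acta2* (3279 and 3359 CPM). *Eln* in them was 51.9 CPM on Day 7 and 225.5 CPM on Day 14, a log2 ratio of 2.12. Without the sub-cluster of 18 or 17 cells with the most *Col1a1*, the values were 61.7 and 203.1 CPM, and *Col1a1* was at 16.3% and 4.95% of its fibroblast-like CPM. *Fbn1* was 487.7 and 336.0 CPM, and *Mfap4*, so high in fibroblast-like cells, was 5.86 and 86.5 CPM. As shares of fibroblast-like CPM without that sub-cluster, *Eln* stood at 33.5% and 14.5%, *Fbn1* at 30.8% and 21.0% and *Mfap4* at 2.25% and 3.13%. *Eln* and *Fbn1* were thus above the *Col1a1* share on both days and *Mfap4* below it.

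The class named after *Bmp4*, a gene of the dermal papilla, had 62 cells on Day 7 and 728 on Day 14. On Day 14 *Emilin1* was highest there, at 75.8 CPM against 51.6 CPM in fibroblast-like cells. *Fbln5* was 112.3 CPM, or 126% of the fibroblast-like level, when *Col1a1* was at 5.92%. *Mfap2* and *Fbln2* were at 31.1% and 29.1%, while *Eln* at 6.61% and *Mfap5* at 5.13% were near the *Col1a1* share. Schwann cell-like cells of Day 14 (141 cells) held *Fbln2* at 410.5 CPM, 42.1% of the fibroblast-like level, and *Fbln5* at 60.3% on 33 UMIs (41.5% to 84.8%), beside 18.9% for *Col1a1*.

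**Figure D4:**
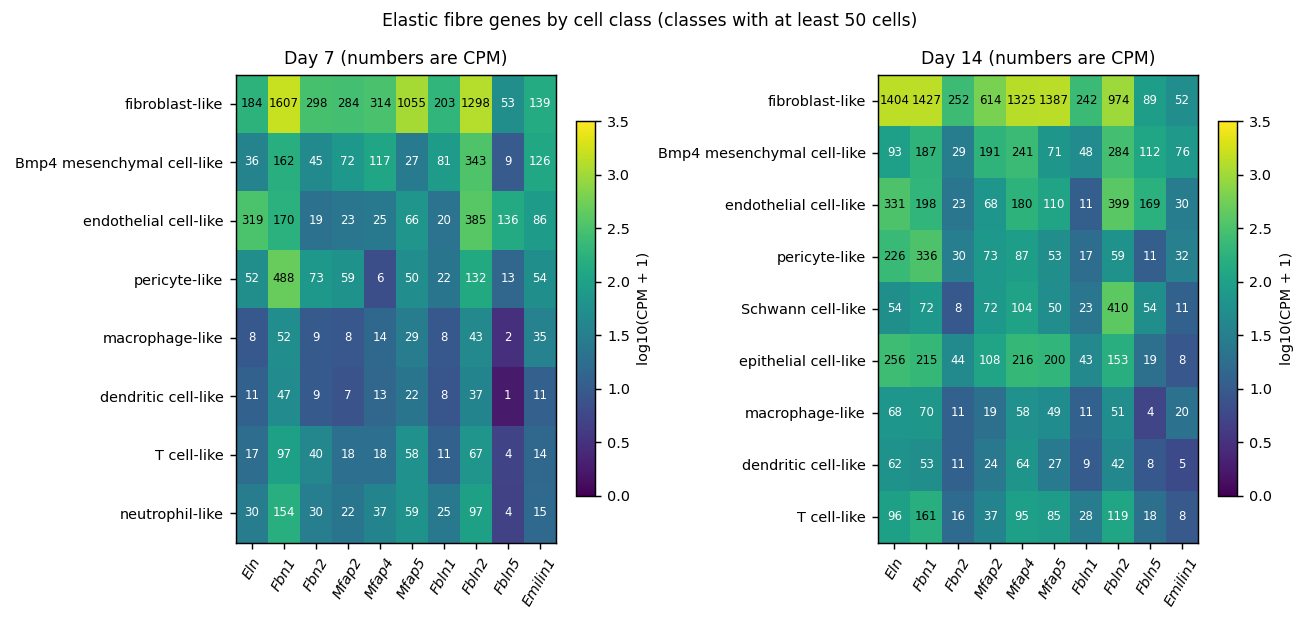
CPM of the 10 genes (columns) by cell class (rows) on Days 7 and 14, for classes with at least 50 cells, coloured by log10(CPM + 1). Fibroblast-like cells lead for 8 of the 10 genes on Day 7 (*Emilin1* within counting error) and on Day 14, and endothelial cell-like cells lead for *Fbln5* on both days.

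Among single fibroblast-like cells *Eln* had the highest variance over mean of the members on Days 7 and 14. Cells were thinned to 2000 UMIs each, which left out 10, 62 and 135 cells on the 3 days and kept 397, 5902 and 6640. At that depth 9.07%, 15.3% and 49.7% of cells had an *Eln* UMI (unthinned 42.8%, 36.2% and 75.6%). The variance of the *Eln* count over its mean was 15.6 on Day 7 and 16.1 on Day 14, and the next highest value of a member was 4.87 (*Mfap4*, Day 14). On Day 7 the top 10% of cells held 88.3% of *Eln* UMIs, and on Day 14 they held 66.3%. This share is also high for any sparsely detected gene, and it was 100% on Day 7 and 73.5% on Day 14 for *Fbln5*. The highest cell had 64 UMIs of *Eln* in 2000 on Day 7 and 127 on Day 14.

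Other members were detected in most or few cells without such extremes. *Fbn1* was found in 82.4%, 87.8% and 82.7% of thinned cells and *Mfap4* in 5.54%, 34.9% and 60.3%. *Emilin1* was found in 26.2%, 21.2% and 9.67%. The median fibroblast-like cell had UMIs of 3 members on Day 3, 4 on Day 7 and 5 on Day 14. As background, with every cell thinned to 500 UMIs, *Eln* was in 2.70%, 5.90% and 27.7% of fibroblast-like cells and in 0.0387%, 0.508% and 2.78% of macrophage-like cells, whose median depths were 4194, 2658 and 3680 UMIs.

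Clusters of the whole data set, built without the 10 genes, showed where the *Eln* UMIs lay. Fibroblast-like cluster 2, with *Mgp*, *Aspn*, *Cilp* and *Eln* itself among its leading genes, had 2 cells on Day 3, 138 on Day 7 and 2630 on Day 14. Its *Eln* level was 1859 CPM on Day 7 and 1784 CPM on Day 14, and it held 20.6% and 55.2% of the *Eln* UMIs of fibroblast-like cells. The 2 cells of Day 3 held 136 *Eln* UMIs, too few cells to give a level for that day. Within this cluster the Day 14 over Day 7 log2 ratio of *Eln* was -0.06, while *Mfap2*, *Mfap4* and *Mfap5* stood at 0.67, 0.70 and 0.68.

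Among clusters with at least 100 cells on both Day 7 and Day 14, *Eln* was higher on Day 14 in the other 2, within 2-fold. Cluster 7 had *Eln* at 656.6 CPM on Day 7 (643 cells) and 1265 CPM on Day 14 (1616 cells). The *Pi16* cluster, cluster 8, had it at 213.4 and 338.7 CPM (924 and 878 cells). Most Day 7 cells lay instead in cluster 1 (2542 cells, *Eln* 88.7 CPM) and in cluster 12 with *Acta2*, *Lrrc15* and *Postn* (1250 cells, *Eln* 56.9 CPM), and these clusters had 77 and 59 cells on Day 14. Cluster 10 went from 39 to 1472 cells, with *Eln* at 1186 and 1510 CPM. *Emilin1* was lower on Day 14 inside all 3 of clusters 2, 7 and 8, within 2-fold, with log2 ratios of -0.60, -0.81 and -0.86. *Fbln1* went the other way from its class, with -0.17, -0.27 and -0.83 inside these clusters against 0.26 for the whole class. *Fbn1*, *Fbn2*, *Fbln2* and *Fbln5* had ratios of both signs among these clusters. From Day 3 to Day 7, clusters 1 and 20 had at least 100 cells on each day. *Eln* had log2 ratios of 0.78 and 0.86 inside them, within 2-fold, against 2.05 for the whole class. *Mfap4* stood at 3.05 and 2.76 there and *Mfap2* at 1.74 and 1.76, past 2-fold. *Emilin1* had opposite signs in clusters 1 and 20, at -0.54 and 0.12, against -0.37 for the whole class. With 1 library per day a cluster mostly of 1 day cannot be told apart from that library.

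Clustering the fibroblast-like cells of each day again, without the 10 genes, gave 12 sub-clusters of at least 50 cells on Day 7 and 12 on Day 14. These are descriptions of cells of 1 library. On Day 7 *Eln* ran 22.9-fold, from 33.6 CPM in the *Cxcl5* and *Nos2* sub-cluster (484 cells) to 771.7 CPM in the *Fgl2* and *Smoc2* sub-cluster (704 cells). On Day 14 it ran 16.6-fold, from 212.9 CPM in the *Tnc* and *Col18a1* sub-cluster (374 cells) to 3544 CPM in the *Col8a1*, *Thbs4* and *Fmod* sub-cluster (1297 cells). Every Day 14 sub-cluster thus held *Eln* above the Day 7 class level of 183.9 CPM. The sub-cluster ranges of the 2 days still overlapped, from 212.9 to 771.7 CPM.

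Different members peaked in different Day 14 sub-clusters. *Mfap4* ran 36.0-fold, from 77.8 CPM in the *Dmkn* sub-cluster to 2798 CPM in a *Crabp1* and *Prss35* sub-cluster of 121 cells. That small sub-cluster also had the highest *Fbln5*, 581.8 CPM against 29.1 CPM in the lowest. *Mfap5* ran 29.4-fold, from 77.1 CPM in the *Gal* and *Wfdc12* sub-cluster, which had *Col1a1* at 110247 CPM and *Mfap4* at 2699 CPM, to 2266 CPM in a *Pi16* and *Sema3c* sub-cluster. *Fbn1* was highest, at 3190 CPM, in the *Dmkn* sub-cluster where *Mfap4* was lowest. That *Dmkn* sub-cluster was also rich in *Pi16*, at 1129 CPM, against 760.2 CPM in the *Sema3c* one. The other 6 members had ranges of 2.68-fold to 7.39-fold on Day 14. These ranges depended on how finely cells were divided: with coarser sub-clusters (resolution 0.3) *Eln* ran 10.5-fold, *Mfap5* 16.4-fold, *Fbln5* 9.76-fold and *Fbn2* 4.74-fold, and with finer ones (resolution 1) *Fbn2* ran 16.3-fold and *Mfap4* 63.2-fold.

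The *Pi16*-rich sub-cluster of Day 7 (*Dmkn* and *Akr1c18*, 803 cells) likewise had the highest *Fbn1* of its day, 3043 CPM, and the lowest *Mfap4*, 49.2 CPM. It also had the highest *Mfap5*, 1826 CPM, and the lowest *Emilin1*, 59.7 CPM. *Emilin1* peaked at 254.8 CPM in the Day 7 *Cxcl5* and *Nos2* sub-cluster, the one with the least *Eln*. Myeloid genes were among the leading genes of 2 Day 7 sub-clusters and 1 of Day 14, and leaving these out of the class totals turned the direction of no member.

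**Figure D5:**
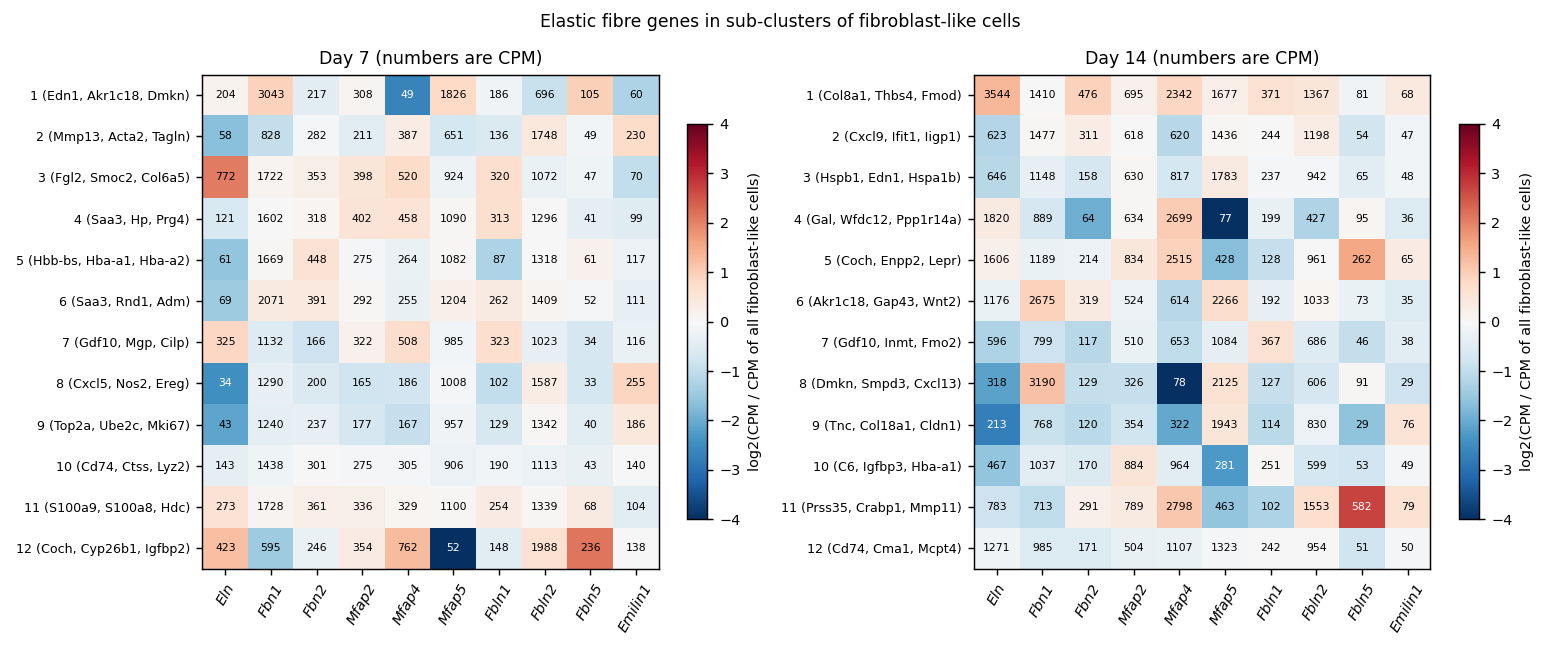
Level of each member in each fibroblast-like sub-cluster of at least 50 cells on Day 7 and Day 14, coloured by the log2 ratio to the CPM of all fibroblast-like cells of that day, with CPM printed in each field and leading genes beside each row. The highest *Eln*, 3544 CPM, is in Day 14 sub-cluster 1, and the lowest *Mfap5* and *Mfap4* of that day are in sub-clusters 4 and 8.

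Over the 24 sub-clusters of both days, which share 2 libraries, the genes with the pattern most like *Eln* among 3353 genes were *Prnp*, *Smoc2*, *Itgbl1*, *Mfap2* and *Ccpg1*, by Pearson correlation of log2(CPM + 1). Their correlations were 0.92, 0.89, 0.87, 0.86 and 0.83. Within the 12 sub-clusters of 1 day they were 0.86, 0.88, 0.66, 0.82 and 0.86 on Day 7 and 0.75, 0.54, 0.79, 0.53 and 0.19 on Day 14. *Mfap2* was the only other member among them.

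Between members, *Mfap2* and *Mfap4* correlated at 0.77 (0.41 within Day 7, 0.82 within Day 14) and *Eln* and *Mfap4* at 0.72 (0.40 and 0.75). *Fbn1* went with *Mfap5* (0.59) and against *Mfap4* (-0.59), with the same sign on each day. *Fbln2* went with *Emilin1* (0.75, and 0.72 and 0.63 within days). *Eln* and *Fbn1* had no common pattern (-0.13). *Eln* and *Emilin1* were at -0.74 over both days, but -0.68 within Day 7 and 0.10 within Day 14. These values describe sub-clusters that share a library and differ in depth, and carry no test.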

How the data were processed

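Cells of pooled wounds were dissociated enzymatically, captured with the Chromium 3' v3.1 kit and sequenced on a DNBSEQ-G400RS. The authors deposited tables of genes by barcodes holding unnormalised UMI counts, and the submitters' processing notes name Cell Ranger 6.0.0 and mm10. UMI counting removes amplification duplicates but not RNA carried between droplets.

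Symbols were matched for 32158 of 32285 Ensembl identifiers. Barcodes with at least 200 genes, 500 UMIs and at most 10% mitochondrial UMIs were kept (4452, 21568 and 14472). Scores against simulated doublets then removed 79, 1861 and 838 likely doublets. Cells were clustered (2000 variable genes, 30 components, 15 neighbours, Leiden resolution 1.0, 160 genes left out) into 30 clusters, and 11 classes were named from fixed markers. The genes left out were the members, their partner genes, mitochondrial and ribosomal protein genes, *Gm42418* and *AY036118*. The scoring rule for naming was adjusted after the clusters were seen, with markers unchanged, and unnamed clusters were left out. The *Bmp4* markers follow in part a cluster table made by the authors on these libraries. Sub-clusters used resolution 0.6.

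UMIs were summed per class and day. Genes with at least 50 CPM on 1 of 2 days and at least 10 UMIs on each were compared. Intervals were exact: Poisson for CPM, conditional binomial for ratios, checked on simulated data. With 1 library per day, no p-value was computed. All 10 members and a list of 34 partner genes were named. The members and lists were chosen with earlier results of these data known. Promoters came from RefSeq. Alternatives covered scaling, filters, doublets, clustering and limits. Python 3.11.15, numpy 2.4.6, scipy 1.17.1, scikit-learn 1.9.0, leidenalg 0.10.2 and matplotlib 3.10.9 were used.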

Additional observations from a re-analysis of the deposited data

Results flagged for a closer look

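In 5 cases a gene among the 10 members went opposite ways in fibroblast-like cells and in another class, with both counting intervals excluding 0. Only the steps from Day 3 to Day 7 and from Day 7 to Day 14 were counted. The differences were not tested, since there was 1 library per day. Both ratios of each case lay within 2-fold, so none counted as higher or lower under the limit used here. The same count was not made over all genes, so no background share stands beside it. Macrophage-like, endothelial cell-like, pericyte-like and *Bmp4* mesenchymal cell-like cells were compared, and opposite directions whose interval held 0 were not counted. In macrophage-like cells from Day 7 to Day 14 the log2 ratio of *Fbn1* was 0.43 against -0.17 in fibroblast-like cells, that of *Fbn2* was 0.35 against -0.24, and that of *Fbln2* was 0.24 against -0.41. *Col1a1* in macrophage-like cells had a log2 ratio of 0.95 over the same days. From Day 3 to Day 7, *Emilin1* in macrophage-like cells had a log2 ratio of 0.71 against -0.37 in fibroblast-like cells, and *Col1a1* there had 3.21. In endothelial cell-like cells from Day 7 to Day 14, *Fbln1* had a log2 ratio of -0.94 against 0.26 in fibroblast-like cells; without the sub-clusters rich in *Col1a1* it had 12 UMIs on Day 7 and 1 on Day 14. The part of carried RNA in these values was not tested.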

How the results depend on the processing

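No paired analysis was possible because each day had 1 library. Over 261 recomputed log2 ratios of the 10 members in fibroblast-like cells, 194 stayed within the counting interval, 67 moved beyond it and none changed sign. *Eln* from Day 7 to Day 14 ran from 2.67 to 3.07, *Emilin1* from -1.49 to -1.29, and *Fbln5* from 0.33 (each library clustered alone) to 0.88. With a fold of 1.5 instead of 2, 8 members instead of 5 were higher on Day 7 than on Day 3. There were 6 with *Fbln1* added when scaled without the 50 most abundant genes (log2 ratio 1.16), by the median of ratios (1.09) or with each library clustered alone (1.01), against 0.97 as reported. Over all genes, that fold gave 358 higher and 913 lower from Day 3 to Day 7 (180 and 350 at 2-fold) and 230 higher and 298 lower from Day 7 to Day 14 (86 and 111). A limit of 10 CPM gave 405, 796, 213 and 353 in the same order, and no CPM limit gave 2068, 2429, 1874 and 2393. Scaling without the 50 most abundant genes gave 226 lower from Day 3 to Day 7, and moved the median log2 ratio of all genes by 0.19 and 0.01; scaling by the median of ratios moved it by 0.12 and 0.14. Alternatives added after the data were seen left out sub-clusters with myeloid or *Col1a1*-rich content, changed the sub-cluster resolution or size, and left out 2 *Eln*-rich cells of Day 3, which gave *Eln* a Day 7 over Day 3 log2 ratio of 2.28 instead of 2.05. The Day 14 sub-cluster ranges moved by over 1.5 times for 5 members. At resolution 0.3 they were 10.5-fold for *Eln* (16.6 at resolution 0.6), 16.4-fold for *Mfap5* (29.4), 9.76-fold for *Fbln5* (20) and 4.74-fold for *Fbn2* (7.39). At resolution 1 they were 16.3-fold for *Fbn2* and 63.2-fold for *Mfap4* (36.0), and with at least 200 cells 9-fold for *Fbln5*. Depth limits low members most: *Fbln5* had 458 UMIs in fibroblast-like cells of Day 3.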

Other observations

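Some genes of the wider elastic fibre system had their highest CPM outside fibroblast-like cells. *Emilin2* stood at 469.8 and 427.6 CPM in neutrophil-like cells of Days 3 and 7, above macrophage-like cells (248.9 and 179.8 CPM) and fibroblast-like cells (135.8 and 151.1 CPM). On Day 14 it was 105.8 CPM in macrophage-like and 101.0 CPM in fibroblast-like cells. The multimerin genes are of the same protein family, and in endothelial cell-like cells *Mmrn1* stood at 187.0 CPM on Day 7 and 446.3 CPM on Day 14. *Mmrn2* stood there at 331.9 and 276.1 CPM. *Mmp9* stood at 521.8 CPM in neutrophil-like cells of Day 3.

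Cells of clusters that took no class name held *Eln* at 6.11, 106.5 and 460.6 CPM on Days 3, 7 and 14, on 2, 225 and 801 UMIs. A cluster of 832 of these cells, 367 of them from Day 14, had all 8 fibroblast markers. It took no name because haemoglobin genes led it, and *Col1a1* and *Eln* were also among its leading genes.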
